A study of Drosophila melanogaster with 48 samples.

Results

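The regions described here are the open-chromatin regions that were listed for a copper titration of HA-tagged Twist (Twi) in Drosophila S2 cells and that overlapped no region of the corresponding Grainyhead (Grh) and Zelda (Zld) titrations, not even by 1 bp. They number 1292 of the 25397 regions of the HA-Twi titration, a background of 5.09%, and are called Twi-titration-only regions below. They were chosen by the 3 titration peak lists themselves, so their presence in the HA-Twi list and their absence from the other 2 titration lists are a description and not a finding. The comparison set was the 21792 HA-Twi regions that overlapped both other titration lists. The remaining 2313 HA-Twi regions overlapped 1 of them, 899 in the Grh titration and 1414 in the Zld titration.

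The series holds 48 ATAC-seq libraries of S2 cells, with 2 libraries per group. Cells carried a copper-inducible factor or were wild type, and were harvested 48 h after CuSO4 was added, except for the groups at 0 uM. The HA-Twi titration used cells with the genotype S2-HA-Twi at 0, 10, 40 and 160 uM, the Grh titration used S2-Grh cells at 0, 25, 100 and 400 uM, and the Zld titration used S2-Zld cells at 0, 500, 1000 and 1500 uM. The main experiments compared wild-type S2-WT cells with S2-Twi cells at 40 uM, with S2-Grh cells at 100 uM and with S2-Zld cells at 1000 uM. Further lists covered the isolated DNA-binding domains (DBD): S2-Grh-DBD cells with S2-WT at 20 uM, S2-Zld-DBD cells with S2-WT at 100 uM, and DBD titration libraries at 80 uM for Grh and 400 uM for Zld.

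The files used here were 10 peak lists. Each titration list was made over all its doses together, the uninduced 0 uM libraries included, and each main list over wild-type and factor libraries together. A listed region therefore has 1 value per list and none per library, no dose could be compared with another, and a Twi-titration-only region may be open in cells without the factor. Copper and factor cannot be told apart within these lists, and the highest copper dose was 160 uM for HA-Twi against 400 and 1500 uM for the others. The labels name the HA tag for the titration cells, and call the cells of the main Twi experiment S2-Twi. Regions are not replicates: the exact p-values below compare lists of regions, and cover no spread between cultures.

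Twi is a basic helix-loop-helix (bHLH) transcription factor that directs the formation of mesoderm in the fly embryo and binds E-box sequences as a homodimer or with its partner Daughterless. It activates regulators of gastrulation, of fibroblast growth factor (FGF) signalling and of muscle fate. S2 cells are a cultured line with hemocyte (insect blood cell) character that is widely used to express a factor away from its own tissue. ATAC-seq marks accessible DNA by the places at which a transposase can insert adapters, and the authors' fold enrichment states how far the signal at a peak summit exceeds its local background. Of 24 hemocyte genes, 19 were the nearest gene to a region shared by all 3 titrations (79.2%, against 59.1% of all protein-coding genes). The other gene lists used below ranged from 48.0% (bHLH factors) to 100% (gastrulation, and Polycomb and Hox genes), with mesoderm regulators at 88.5%. Hemocyte genes were also longer, with a median of 14853 bp against 2161 bp for all genes. The share of 79.2% therefore does not mark the cell type.

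The region with the highest fold enrichment lay over twi itself, at chr2R:23046483-23047695 (dm6). It was 1213 bp wide, the widest of the 1292, with a fold enrichment of 18.6 in the HA-Twi titration. In the main Twi list this locus had 7.91, in the main Grh list 1.82, and it was absent from the main Zld list and all 4 DBD lists. A second region, at chr2R:23047834-23048079, had 6.23 in the HA-Twi titration and 6.22 in the main Twi list and appeared in no other list. Both were thus high in the experiments whose cells carried an inducible Twi. Whether reads of the introduced twi sequence contributed to them was not tested. Another region inside the long annotated span of twi lay nearest to another gene and was present in all 7 lists outside the rule. The genes grh and zld held none of the 1292 regions, and zld held no region of the whole HA-Twi list. The copper-responsive metallothionein gene MtnA likewise held none of them, although it had 1 region of fold enrichment 39.2 in the HA-Twi list.

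After twi, the highest fold enrichments fell inside genes of varied function. A region at chr3L:3134090-3134384 inside CG11537 had 14.0 in the HA-Twi titration and 14.4 in the main Twi list. In the other 6 lists it lay between 1.93 and 3.16, so it was listed everywhere outside the rule but with its highest values in the lists with Twi cells. A region at chr2L:8286633-8286932 inside Btk, which encodes a Tec-family tyrosine kinase, had 8.93 in the HA-Twi titration, 4.78 in the main Twi list and 1.64 in the Zld DBD list, and was absent from the other 5. A region at chr3R:9152429-9152746, within the gene for the translational repressor pum and nearest to an end of CG11997, had 8.76 in the titration and 4.13 in the main Twi list and appeared nowhere else.

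In all, 7 of the 20 strongest regions shared that pattern of the titration and the main Twi list alone, the second twi region among them. The region at ltl, which encodes a leucine-rich-repeat protein, lay at chr3L:7522333-7522850 and had 7.10 in the titration and 2.48 in the main Twi list. The region inside Ptp99A, a receptor tyrosine phosphatase gene, at chr3R:29461006-29461412 had 6.99 and 4.50 (its nearest gene end belongs to CG2321). These were intragenic sites far from gene ends, at 3600 and 23519 bp. The region inside scrib, which encodes a scaffold protein of epithelial polarity, had 6.77 and 2.89. The region inside CG32369 had 6.75 and 5.69. The region inside raskol, a gene for a Ras GTPase-activating protein, had 6.21 and 6.39. Below the 20 strongest, the same pattern held at mgl, which encodes the endocytic receptor Megalin, with 5.80 and 3.54, and at rdog, a gene for an ABC transporter, with 5.65 and 1.63.

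Other strong regions were open in most lists and were absent from the Grh and Zld titration lists. At chr2R:5152453-5152608 inside Atf6, a transcription factor gene of the endoplasmic reticulum stress response, the fold enrichment was 8.78 in the HA-Twi titration, 4.69 in the main Twi list and between 3.00 and 5.05 in the other 6. At chr3L:23580671-23580897 inside AGO3, an Argonaute gene of the piRNA pathway, it was 8.57, then 6.05 in the main Twi list and between 2.63 and 7.53 in the other 6. At chr2L:22144137-22144445, nearest to dunk, it was 7.48 in the HA-Twi titration and 10.2 in the main Twi list, and reached 14.2 in the Grh DBD titration list. At each of these 3 regions, at least 1 list without Twi cells had a value above that of the main Twi list. Of the 20 strongest, all 20 were in the main Twi list, 10 in the main Grh list, 9 in the main Zld list and 5 in all 7 lists. Over the whole HA-Twi list, 93.5% of regions were in the main Twi list, 88.0% in Grh and 93.2% in Zld. Presence in the main Twi list was thus near its background. Of the 20, 17 lay inside a gene and 1 had its summit within 500 bp of a gene end. The shares over the whole HA-Twi list were 67.7% and 43.3%.

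Most Twi-titration-only regions were far weaker than these. Their fold enrichment ranged from 1.22 to 18.6 with a median of 2.27 and quartiles of 1.89 and 2.81, against medians of 6.70 for regions of all 3 titrations and 2.40 for those shared with 1 other. The median −log10 q was 8.64 against 133 in regions of all 3 titrations, and the median width was 86 bp against 181 bp. More than 1 summit was present in 100 of them (7.74%), against 20.7% of the regions of all 3 titrations. A region near the threshold can pass it in 1 list and miss it in another, and the rule selects for this, so these strengths are given as a description. The gap to the nearest region of the Grh or Zld titration lists had a median of 475 bp, and 345 regions (26.7%) lay within 200 bp of one. Just inside the rule stood a region near ec with a gap of 1 bp and a fold enrichment of 1.66, and one near Hipk with a gap of 12 bp and 1.47. Just outside stood regions near CG8468 and CG14443 with overlaps of 9 bp each and fold enrichments of 1.61 and 1.64.

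The main lists came from other libraries and did not enter the rule, so they were used to ask in which experiment these regions were found again. The main Twi list held 953 of the 1292 (73.8%, exact binomial 95% interval 71.3 to 76.1). The main Grh list held 487 (37.7%, 35.0 to 40.4) and the main Zld list 647 (50.1%, 47.3 to 52.8). Over the whole HA-Twi list these shares were 93.5%, 88.0% and 93.2%. Thus Twi-titration-only regions were found less often than HA-Twi regions in general, with the smallest deficit in the main Twi list. For the same 1292 regions, 497 were in the main Twi and not the main Grh list and 31 the other way round (exact McNemar test, two-sided, adjusted p = 6.06e-109). Against the main Zld list the discordant counts were 409 and 103 (exact McNemar test, two-sided, adjusted p = 3.72e-44). Absence from the Grh and Zld titration lists was part of the rule, which favours lower shares in the main Grh and Zld lists.

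**Figure D1:**
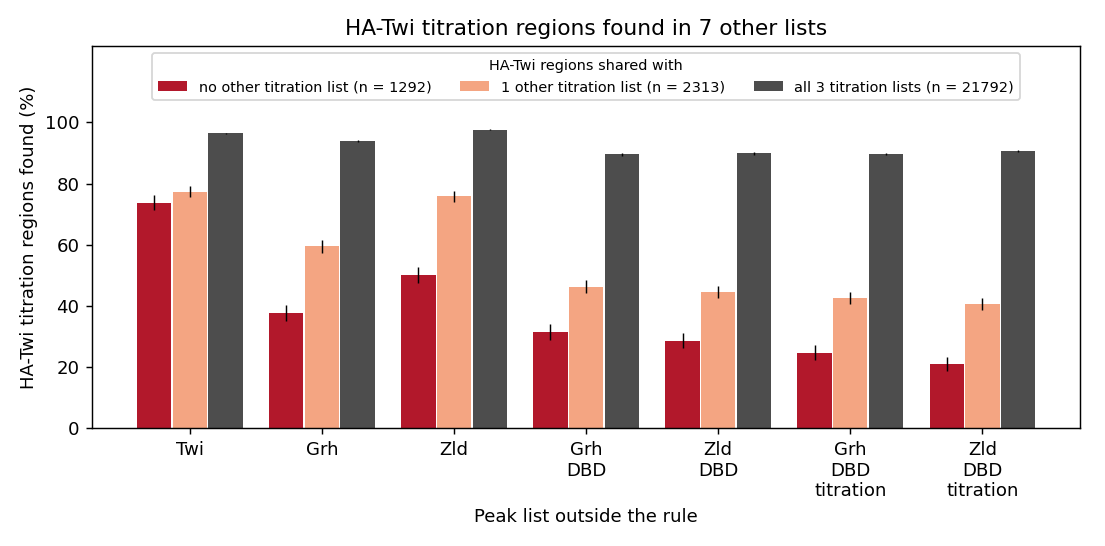
Share of HA-Twi titration regions found in each of the 7 lists outside the rule (vertical axis, percent; bars with exact binomial 95% intervals over regions), for regions in no other titration list, in 1 other and in all 3. Regions in no other titration list were found in the main Twi list in 73.8% of cases and in the other 6 lists in 20.9 to 50.1%, whereas regions of all 3 titrations were found in 89.5 to 97.6% in every list.

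The main Twi list was the longest, with 71754 regions against 44658 for Grh and 33943 for Zld, and a longer list can hold more regions of any set. The 1292 regions were overlapped by 1.33% of the main Twi list, 1.09% of the main Grh list and 1.89% of the main Zld list. With each main list limited to its 25000 regions of highest −log10 q, the shares found were 43.9% for Twi, 18.3% for Grh and 25.9% for Zld. The Twi share was still the highest (exact McNemar tests, adjusted p = 7.5e-64 against Grh and 8.69e-28 against Zld). In the lists limited to a −log10 q of at least 10, which were again unequal with 32331 regions for Twi, 19816 for Grh and 23162 for Zld, the shares were 56.5%, 7.43% and 21.3%. With 25000 regions per list, HA-Twi regions shared with 1 other titration were found in 45.6% in Twi, 36.5% in Grh and 47.5% in Zld. In the whole main Twi list they were found in 77.4%. A high share in the main Twi list was therefore not particular to the Twi-titration-only regions.

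The regions of the Grh titration alone and of the Zld titration alone gave a mirror of this comparison, chosen after the data were seen. With main lists of 25000 regions, the 6262 regions of the Grh titration alone were found in 11.2% of cases in Twi, 19.2% in Grh and 6.76% in Zld. The 3005 regions of the Zld titration alone were found in 24.0%, 16.6% and 29.5%. At this length each of the 3 sets was found most often in the main list of its own factor. That order did not hold for the other 2 sets in the whole lists, where the Grh set was found in 43.4% in Twi and 42.3% in Grh and the Zld set in 68.6% in Twi and 58.9% in Zld, nor at a −log10 q of at least 10. In both of these forms the main Twi list was the longest. The Twi-titration-only regions, at 43.9% in the main Twi list, exceeded both the Grh set (Fisher's exact test, two-sided, adjusted p = 5.38e-148) and the Zld set (Fisher's exact test, two-sided, adjusted p = 1.35e-37) in that list. In the whole main Twi list, 73.8% against 43.4% and 68.6% left a small distance to the Zld set (Fisher's exact tests, adjusted p = 2.37e-90 and 0.000632). The Grh and Zld sets were chosen for absence from the HA-Twi titration list. That choice favours lower shares in another Twi list, so these p-values describe the lists and are no independent support.

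The share found in the main Twi list was higher in stronger regions, while the share in the main Grh list stayed between 35.9% and 44.4%. Among the 419 regions with a fold enrichment below 2 in the HA-Twi titration, 69.7% were in the main Twi list, 39.6% in Grh and 42.5% in Zld. Among the 632 between 2 and 3 these were 72.5%, 35.9% and 51.3%, and among the 196 between 3 and 5 they were 81.6%, 37.8% and 63.3%. Of the 45 regions at 5 and above, 43 were in the main Twi list, 20 in Grh and 21 in Zld. Regions of all 3 titrations with a fold enrichment between 2 and 3 were found in 87.3% of cases in Twi, 80.7% in Grh and 91.2% in Zld. At that strength the Twi-titration-only regions thus lagged in all 3 lists and most in Grh. Below 2, regions of all 3 titrations were found in 79.7% in Twi, 76.8% in Grh and 85.7% in Zld, and the lag was largest in Zld. Between 3 and 5, and at 5 and above, it was again largest in Grh. The rule favours a larger lag in Grh and Zld. It chose Twi-titration-only regions for absence from those titration lists and the comparison set for presence in them.

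**Figure D2:**
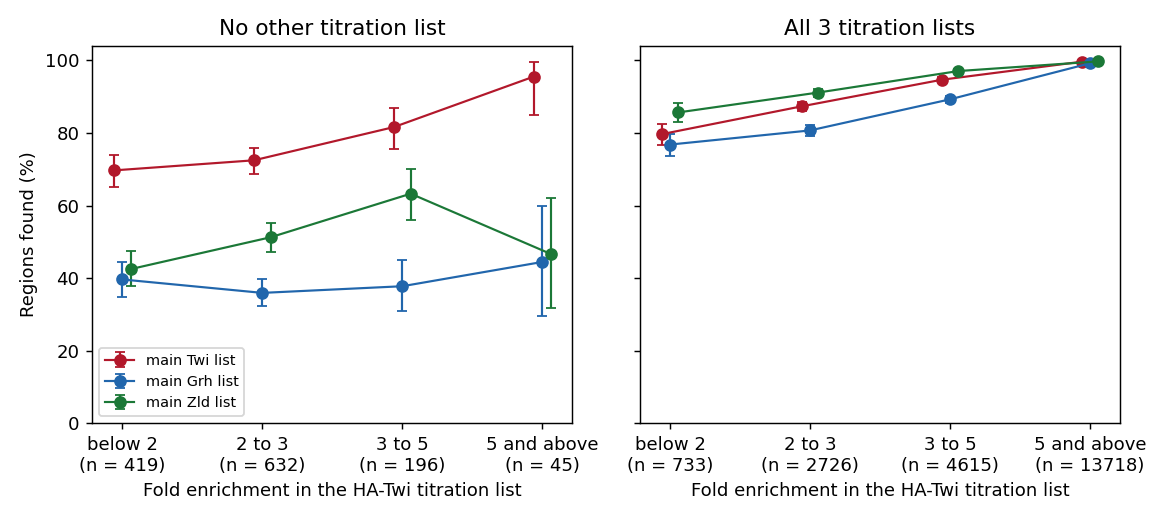
Share of HA-Twi titration regions found in the main Twi, Grh and Zld lists (vertical axis, percent, with exact binomial 95% intervals over regions) by fold enrichment in the HA-Twi titration list, for regions in no other titration list (left) and in all 3 (right). On the left the Twi share runs from 69.7% to 95.6% and lies above the Grh and Zld shares in every fold class; on the right the 3 lists lie close together.

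Where a Twi-titration-only region was in the main Twi list, its strength there was only loosely tied to its strength in the titration. The median fold enrichment of the 953 in the main Twi list was 2.20, with a range of 1.22 to 14.4. Spearman's rho between both fold enrichments was 0.341 over these 953 regions and 0.778 over 21003 regions of all 3 titrations. The lists share no library, and the fold enrichment of the 21003 regions in the main Twi list spanned a wider range, from 1.13 to 103.

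**Figure D3:**
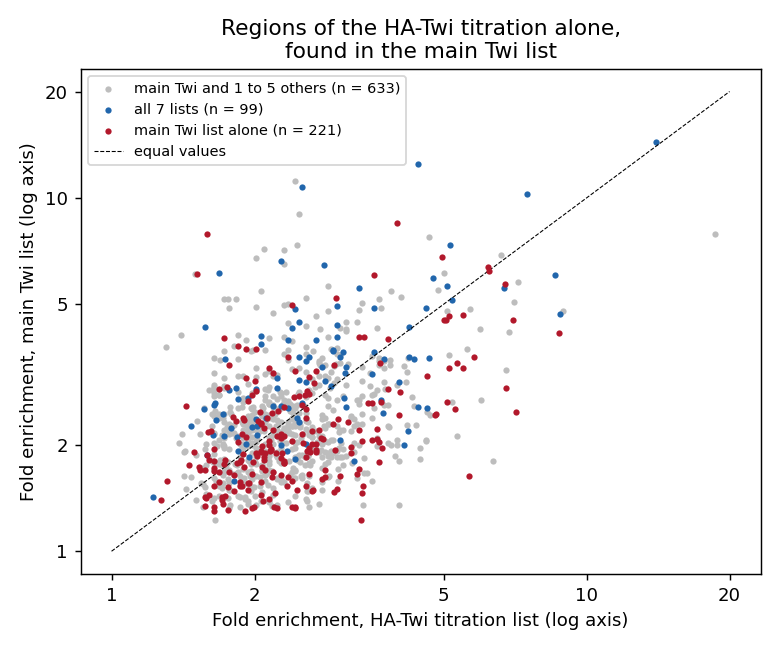
Fold enrichment in the main Twi list against fold enrichment in the HA-Twi titration list (log axes) for the 953 Twi-titration-only regions found in both, 1 point per region, coloured by presence in the other 6 lists. Most points lie between 1.22 and 5 on both axes; the region over twi stands at 18.6 and 7.91, and the one in CG11537 at 14.0 and 14.4.

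Presence in all 7 lists outside the rule divided the 1292 regions into classes, which were drawn up after the data were seen. The main Twi list alone held 221 (17.1%), with a median fold enrichment of 2.27 and a median width of 107 bp. Another 633 (49.0%) were in the main Twi list and 1 to 5 others, and 99 (7.66%) were in all 7. There were 126 (9.75%) in other lists without the main Twi list, and 213 (16.5%) in no list but that of the HA-Twi titration. Among the 3 main lists, 294 regions were in Twi alone, 83 in Zld alone and 11 in Grh alone, and 225 were in none. All these counts use whole lists of unequal length, of which the main Twi list was the longest. Matching counts over the whole HA-Twi list are not given, so presence in the main Twi list alone is a description. The DBD lists held from 20.9% (Zld DBD titration) to 31.4% (Grh DBD) of the Twi-titration-only regions, against 82.0 to 82.6% of the whole HA-Twi list.

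By position, Twi-titration-only regions lay further from gene ends than regions of all 3 titrations. The summit was within 500 bp of either end of a protein-coding gene in 329 of 1292 (25.5%, exact 95% interval 23.1 to 27.9), against 9957 of 21792 (45.7%, 45.0 to 46.4) and a background of 43.3% over the list (Fisher's exact test, two-sided, adjusted p = 1.09e-47). The median distance was 2165 bp against 659 bp. The summit lay inside a gene in 979 (75.8%, 73.3 to 78.1), against 66.0% and a background of 67.7% (Fisher's exact test, two-sided, adjusted p = 2.56e-13). The differences varied with strength. Among regions with a fold enrichment of 2 to 3 in both sets, 30.2% against 29.6% were near a gene end (Fisher's exact test, adjusted p = 0.772). Inside a gene these were 73.9% against 77.4% (Fisher's exact test, adjusted p = 0.202). Both directions were reversed there, so a difference in position was not detectable at that strength. Below 2, 15.3% against 19.8% were near a gene end and 79.2% against 77.4% inside a gene. Between 3 and 5 these were 35.2% against 39.3% and 76.0% against 71.8%. With a −log10 q of at least 10 in both sets, 31.4% against 47.0% were near a gene end (Fisher's exact test, adjusted p = 7.2e-13). Inside a gene these were 76.0% against 65.4% (Fisher's exact test, adjusted p = 1.77e-07). Against regions shared with 1 other titration, 25.5% compared with 31.1% near a gene end (Fisher's exact test, adjusted p = 0.00112).

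The strongest class did not follow the others. Regions of all 3 titrations lay near a gene end more often the stronger they were, with 19.8% below a fold enrichment of 2, 39.3% between 3 and 5 and 52.4% at 5 and above. Among Twi-titration-only regions the shares were 15.3%, 35.2% and then 11.1% (5 of 45, exact 95% interval 3.71 to 24.1) at 5 and above. That class has no upper bound, and strength was not matched within it. The highest fold enrichment was 18.6 in Twi-titration-only regions and 119 in regions of all 3 titrations, whose upper quartile was 12.3. Of the 45 Twi-titration-only regions at 5 and above, 31 (68.9%, exact 95% interval 53.4 to 81.8) lay inside a gene, as at Btk, pum, Ptp99A and raskol. That share was near the background of 67.7% over the HA-Twi list. Among regions of all 3 titrations at 5 and above it was 61.2%. The classes by list differed too: 14.0% of regions in the main Twi list alone lay within 500 bp of a gene end, against 49.2% of those in other lists without the main Twi list. These classes were not tested against each other.

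**Figure D4:**
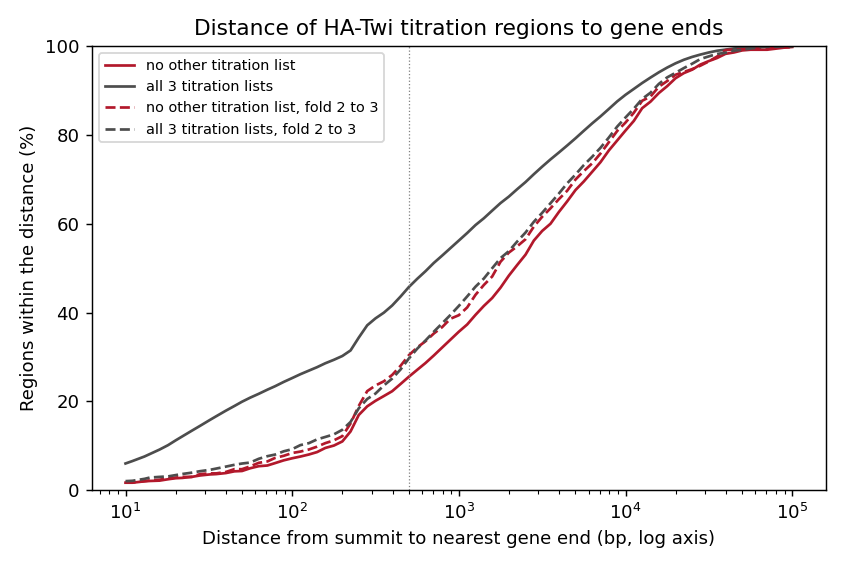
Cumulative share of HA-Twi titration regions (vertical axis, percent) by distance from the summit to the nearest end of a protein-coding gene (log axis, bp), for regions in no other titration list and in all 3, with each set also limited to a fold enrichment of 2 to 3 (dashed); the dotted line marks 500 bp. At 500 bp the solid curves stand at 25.5% and 45.7%, and the dashed curves at 30.2% and 29.6%.

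Of the chromosomes, the X held 228 regions (17.6%, 15.6 to 19.8) against 18.6% of the regions of all 3 titrations and a background of 18.6% (Fisher's exact test, two-sided, adjusted p = 0.418). Chromosome 4 held 21 (1.63%) against 0.98%, and the Y held 4 (0.31%, exact 95% interval 0.084 to 0.79) against 10 (0.046%) of the regions of all 3 titrations. The whole HA-Twi list had 16 regions on the Y. For Twi-titration-only regions, the nearest region of all 3 titrations was at a median of 960 bp, and 1089 (84.3%) had one within 5 kb. The nearest other Twi-titration-only region was at a median of 17914 bp, and 333 (25.8%) had one within 5 kb. Such distances are not given for other HA-Twi regions, so these values are a description.

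As nearest gene, the 1292 regions named 1034 of 13946 protein-coding genes, a background of 7.41%. Of these genes, 848 had 1 region, 138 had 2 and 48 had more. The genes named were longer than others: 4.24% of genes under 2000 bp, 11.1% of those from 5000 to 20000 bp and 24.0% of those of 20000 bp and above were named. The median length was 5054 bp for the genes named and 2161 bp for all, and the median gene length of each list is therefore given beside its count below. Regions found in the main Twi list and in no other list outside the rule named 205 genes, a background of 1.47%, with 0.72% of genes under 2000 bp, 2.43% from 5000 to 20000 bp and 6.08% of 20000 bp and above. The gene lists were not tested against other genes or against each other.

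Among 26 mesoderm regulators, 7 (26.9%) were the nearest gene to a Twi-titration-only region: twi, zfh1, how, Kr, ap, pnr and Doc2. Their list has a median gene length of 5518 bp. For 3 of the 26 (twi with its second region, how and Doc2), a region was in the main Twi list and in no other outside the rule. At how, which encodes an RNA-binding protein of muscle and tendon development, the region at chr3R:22044707-22044876 had a fold enrichment of 1.97 in the titration and 2.76 in the main Twi list. At Doc2, a T-box factor gene of dorsal mesoderm and heart, the values were 1.57 and 1.34 with a −log10 q of 1.34 in the titration, close to the threshold of the list. At zfh1, a zinc-finger homeodomain gene of mesoderm, the stronger of 2 regions had 2.31 in the titration, 4.98 in the main Twi list and 1.92 in the main Grh list. Of 2 regions near ap, a LIM-homeodomain gene, the one with 1.51 in the titration was absent from the main Twi list and the one with 1.42 had 1.91 there. The region near pnr, a GATA factor gene, had 1.53 and was in no other list. Apart from twi, these were weak regions, at or below 2.82.

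Of 12 genes of FGF signalling and mesoderm spreading, 4 (33.3%) had such a region, on a median gene length of 17776 bp. In all 4 the strongest region was in the main Twi list and in no other outside the rule. Among all 1034 genes named, 205 had any region of this kind. The region near htl, the FGF receptor gene of the mesoderm, lay outside any gene at chr3R:18065391-18065487 and had 2.02 in the titration and 2.84 in the main Twi list. At bnl, which encodes the FGF ligand of the tracheal receptor, the intragenic region had 2.31 and 1.78. At csw, a tyrosine phosphatase gene acting downstream of receptor tyrosine kinases, it had 2.44 and 1.33. At if, the gene for the αPS2 integrin subunit of muscle attachment, it had 1.87 and 1.53. The titration values of these 4 regions lay between 1.87 and 2.44, near the median of 2.27.

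Of 10 gastrulation genes (median length 18128 bp), fog and zip had a region. The one inside zip, the non-muscle myosin heavy chain gene, had 2.42 in the titration and 2.73 in the main Twi list alone. Of 2 regions at fog, whose product triggers apical constriction, the one with 1.93 was in no other list and the one with 1.69 had 1.81 in the main Twi list and was in other lists too. Muscle structure gave 3 of 25 genes (12.0%, median length 11355 bp): Act87E, rst and WASp, none of them with a region of the main Twi list alone. Among 25 genes of bHLH and related factors (median length 2430 bp), emc, Myc, sim and tai had a region. The one at emc, which encodes an inhibitor of bHLH factors, had 1.61 and 1.81 in the main Twi list alone. That of sim, the midline regulator, had 4.58 in the titration at 138 bp from a gene end, 2.07 in the main Twi list and between 1.98 and 2.69 in 3 DBD lists.

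Of the genes of the hemocyte character of S2 cells, 8 of 24 (33.3%) were named, on a median gene length of 14853 bp: ush, Pvr, vkg, LanA, Tl, kay, Stat92E and pnt. All 8 had a region found in the main Twi list, and vkg, LanA, Stat92E and pnt had one found in no other list outside the rule. Of all 1034 genes named, 769 had a region of the first kind and 205 one of the second. The intragenic region of vkg, a collagen IV gene, at chr2L:5022684-5023038 had 5.07 in the titration and 4.51 in the main Twi list and was the strongest of this list. That of Stat92E, the transcription factor gene of JAK/STAT signalling, had 2.93 and 2.29. That of pnt, an ETS factor gene, had 1.88 and 2.15, and that of LanA, a laminin subunit gene, 1.49 and 1.91.

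The other lists covered programmes of the other factors, neuronal genes and copper. The epidermal barrier list, a programme of Grh, gave 5 of 27 genes (18.5%, median length 10713 bp), of which Lac, a septate junction gene, had a region of the main Twi list alone with 2.23 and 1.32. The early zygotic list, a programme of Zld, gave 6 of 35 (17.1%, median length 3049 bp): kni, Kr, tld, sog, twi and ush. Neuronal genes gave 3 of 20 (median length 35371 bp), among them SerT, the serotonin transporter gene, with 4.96 in the titration and 6.81 in the main Twi list alone. Copper response gave 1 of 20 (median length 1527 bp), Hsp83, at 2.33 and in no other list. None of 19 Polycomb and Hox genes (median length 12162 bp) had a region, although all 19 were nearest to a region shared by all 3 titrations.

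**Figure D5:**
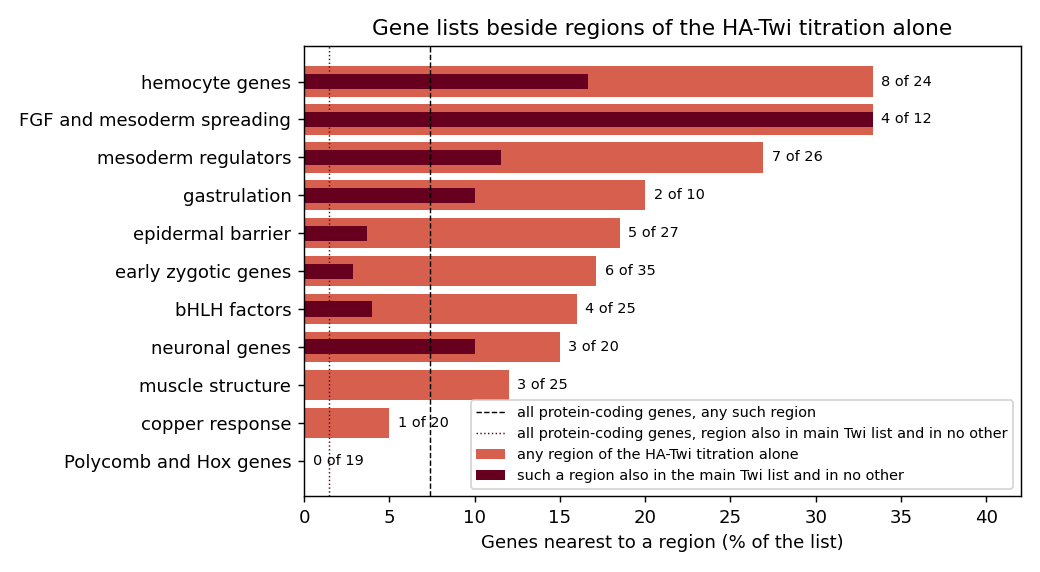
Percent of genes of 11 lists that were nearest to a Twi-titration-only region (wide bars, with counts) and to one found in the main Twi list and in no other list outside the rule (narrow dark bars); the dashed line is the 7.41% and the dotted line the 1.47% of all protein-coding genes for the wide and the dark bars. Hemocyte and FGF genes stand at 33.3% and mesoderm regulators at 26.9%, and Polycomb and Hox genes at 0; lists differ in gene length and were not tested.

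Several genes were the nearest gene to groups of these regions, some of which lay outside the gene. The perlecan gene trol, which encodes a basement membrane proteoglycan, had 8 of its 23 nearest HA-Twi regions in the set, all inside its 74968 bp, with fold enrichments from 1.47 to 2.94. Of these 8, 7 were in the main Twi list, 4 in Grh and 4 in Zld, and the highest values in the main Twi list were 3.00 and 2.77. Over all 1292 regions the shares in these lists were 73.8%, 37.7% and 50.1%. Over the whole HA-Twi list they were 93.5%, 88.0% and 93.2%. Counts per gene here and below are small and were not tested against these shares. AGO3 and jing, a zinc-finger factor gene, were nearest to 6 each, with 3 inside the gene in both cases. The others lay 16885 to 18654 bp from an end of AGO3 and 79066 to 83031 bp from one of jing. For both genes 5 of the 6 were in the main Twi list, 3 in Grh and all 6 in Zld. At jing, fold enrichments ran from 2.52 to 5.34, and the region with the lowest value in the titration had the highest in the main Twi list, at 10.7. Of 5 regions nearest to bab2, which encodes a BTB-domain transcription factor, 4 lay inside the gene. All 5 were in the main Twi list, 3 in Grh and 4 in Zld. The strongest had 5.09 in the titration and 4.79 in the main Twi list.

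Among genes with 4 regions, CG43658 and sog differed in how often these were found again. At CG43658, all 4 were in the main Twi list, 0 in Grh and 3 in Zld, with values of 7.02, 5.48, 2.86 and 2.27 in the titration and 5.08, 4.66, 1.90 and 2.81 in the main Twi list. At sog, which encodes an antagonist of BMP signalling, 2 neighbouring regions with 3.70 and 2.52 in the titration were absent from all 3 main lists, and the other 2, with 3.32 and 2.99, were in all 3. At EcR, the ecdysone receptor gene, and hppy, a MAP4-kinase gene, all 4 were in the main Twi list, 3 in Grh and 2 in Zld. At mgl, with fold enrichments from 1.77 to 5.80, 3 were in Twi, 2 in Grh and 2 in Zld. Of 4 regions nearest to Pld, the phospholipase D gene, 0 lay inside its 13263 bp. They lay 11589 to 99425 bp from a gene end. With 2.31 to 5.00 in the titration, 3 of these were in Twi, 2 in Grh and 4 in Zld.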

How the data were processed

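ATAC-seq was performed on S2 cells, and 10 peak lists in dm6 coordinates were used. Per the submitters' processing notes, Bowtie2, MACS2, featureCounts, DESeq2 and deepTools 3.5.1 were named without roles or settings. Any shift of reads for the transposase cut is not given in the sources used. Each peak of the deposited lists carries the authors' fold enrichment, which is a ratio, their −log10 q, which is at least 1.30, and an offset of the summit in bp; they serve to describe and rank peaks within a list. The DBD titration lists give no summit. Per the labels, each full-length list pools the libraries of its experiment; the DBD titration libraries name no list in their labels and were linked to theirs by name. Depth per library is unknown, and exact binomial 95% intervals cover regions only.

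Rows sharing a peak number were merged, and the summit of the strongest row was kept. Regions overlapping by at least 1 bp were called found or shared. Genes were those of the RefSeq Release 6 table (17807 genes, of which 13946 are protein-coding), used without strand or exons; each summit was assigned to the nearest end of a protein-coding gene. All 232 symbols of the 11 gene lists matched, 6 of them by synonym. Shares of the same regions in different lists were compared with exact McNemar tests (adjusted over 2) and shares of different sets with Fisher's exact tests (adjusted over 3 for position and over 2 for the added comparison with the Grh and Zld titrations), two-sided, with Benjamini-Hochberg adjustment and a threshold of 0.05; the functions were tested on simulated data. The regions, gene lists and tests were chosen with earlier results of these data known. The genes to be named were fixed as those nearest to the 20 strongest regions, the 10 genes with the most regions, listed genes with their strongest region, the 10 strongest regions in the main Twi list and in neither main Grh nor Zld, and twi, grh, zld and MtnA. Classes by list, and the genes named from them, were added after the values were seen. Planned motif tests and distances to gene starts were not run, since no genome sequence or strand was used here, and no sequence is printed. Calculations ran in scipy 1.17.1 with pandas 2.3.3 and numpy 2.4.6 under Python 3.11.15, and plots in matplotlib 3.10.9.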

Additional observations from a re-analysis of the deposited data

How the results depend on the processing

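Of 38 alternative values, 32 kept their direction and their side of the threshold, counts within 1.5 times. The number of regions was 1292, and it was 551 when the HA-Twi list alone was limited to a −log10 q of at least 10 and 3104 when the Grh and Zld titration lists alone were (chosen after seeing the data); both follow from shortening 1 side. With all 3 titration lists limited it was 1375, with equal list lengths 1925, with an overlap of 50% of the shorter region 1327 and with regions within 200 bp counted as shared 947. The lead of the main Twi list ranged from 25.6 to 49.1 percentage points over Grh and from 18.0 to 35.2 over Zld. Reversed differences between the Twi-titration-only regions and regions of all 3 titrations were 0.65 points for gene ends and -3.51 points for gene bodies at a fold enrichment of 2 to 3, 0.52 points for the X at a −log10 q of at least 10 (19.2% against 18.7%; Fisher's exact test, adjusted p = 0.74) and, against regions shared with 1 other titration, -2.83 points for gene bodies (75.8% against 78.6%; Fisher's exact test, adjusted p = 0.083); the cause was not tested. No paired analysis was possible because each list pools all libraries of its experiment, and for the same reason no replicate could be left out. Motif windows and gene starts were not run. Unknown depth limits how firmly absence from a list can be read.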

Other observations

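The 213 Twi-titration-only regions found in no other list of the series were small, with a median width of 78 bp, and 64 of them (30.0%) lay on the X, against 17.6% of all 1292. This class was drawn up after the data were seen and was not tested. Its strongest regions, all inside genes, lay at CG6073 (fold enrichment 5.09), at dx, a regulator of Notch signalling (4.50), at CG4645 (4.46), at Pi4KIIIalpha, a phosphatidylinositol kinase gene (4.08), and at Arl2, a small GTPase gene (3.82). Of these 5, 3 lie on the X.

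The 99 regions present in all 7 lists outside the rule included CaMKII on chromosome 4 (5.21 in the titration, 5.15 in the main Twi list), Yeti (5.17 and 7.34) and RpL15 (4.67 and 3.53). Along the chromosomes, Twi-titration-only regions made up 30 of 280 HA-Twi regions (10.7%, exact 95% interval 7.35 to 14.9) from 22 Mb to the end of 3L and 26 of 259 (10.0%, 6.66 to 14.4) in the first 6 Mb of 2R. On the rest of these arms the shares were 4.81% and 4.37%. On other arms, the share from 22 to 24 Mb was 5 of 113 (4.42%) on 2L and 9 of 99 (9.09%) on the X. On 3R it was 1 of 4 from 0 to 2 Mb and 2 of 25 from 2 to 4 Mb. These intervals of the arms were picked after their values were seen.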
